A study of Mus musculus with 6 samples.

Results

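MAP kinase phosphatases and Sprouty proteins are the feedback brakes of growth factor and stress signalling. The transcripts described here were those of 10 listed genes: the phosphatase genes Dusp1, Dusp2, Dusp4, Dusp5, Dusp6, Dusp7, Dusp10 and Dusp16, and the Sprouty genes Spry1 and Spry2. Members were the rows of the deposited annotated table whose gene symbol equalled a listed name, which gave 9 genes of the 16111 with an identifier. Dusp4 had no row under its symbol and was not analysed here. The members were chosen by name with their differences between the genotypes in these 6 libraries already known, so they count as selected on the log2 fold change and call of that comparison. Its values and calls are given for the members as a description. No test was run over the members as a group. A call that held under other processing of these same libraries is not independent support.

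MAP kinases (ERK, JNK and p38) relay signals from growth factor receptors, cytokine receptors and Toll-like receptors, and are active only while phosphorylated on a threonine and a tyrosine. Dual-specificity phosphatases remove both phosphates, and many of their genes are themselves switched on by MAP kinase activity, which closes a negative feedback loop. The products of Dusp1, Dusp2, Dusp4 and Dusp5 are nuclear, those of Dusp6 and Dusp7 are cytoplasmic and prefer ERK, and those of Dusp10 and Dusp16 act mainly on JNK and p38. Sprouty proteins act further upstream and dampen signalling from receptor tyrosine kinases through Ras to ERK. In macrophages Dusp1 is best known for limiting p38 activity and cytokine production after a Toll-like receptor signal.

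RNA was sequenced from 6 cultures of mouse fetal liver macrophages of strain C57BL/6 RCC, 3 wild-type and 3 homozygous for loss of Ahrr (AhRR-/- in the labels), the repressor gene of the aryl hydrocarbon receptor pathway. Cells of both groups were taken at stage E13.5 and were cultured for 5 weeks with 2% GM-CSF, a cytokine that sustains macrophages, before the non-adherent cells were collected. The labels number the mice 1 to 3 in each group and do not say how the Ahrr allele was made or whether livers were pooled, so the values describe macrophages after long culture. No stimulus beyond the culture medium is named.

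Total counts lay between 3556106 (Ahrr-deficient replicate 1) and 41668336 (Ahrr-deficient replicate 2), an 11.7-fold range, and between 6300421 and 21939809 in the wild-type libraries. Wild-type replicate 2 stood apart in a ribosomal RNA gene, CT010467.1, with 52793 CPM (counts in every 1000000 counts of the library) against at most 679 CPM in the other 5 libraries. Ahrr had between 4.29 and 5.32 CPM in the wild-type and between 1.21 and 2.57 CPM in Ahrr-deficient libraries, a fitted log2 change of -1.21 (SE 0.26; p 0.0151 after adjustment in edgeR). Its call was lost without wild-type replicate 1 (log2 fold change -1.29) or replicate 3 (-1.18). All 10 macrophage markers were detected, with a summed level of 23529 to 29053 CPM in the wild-type and 17723 to 25350 CPM in Ahrr-deficient libraries. Of these markers Mrc1 was called higher, and Cd14 and Csf1r lower, in Ahrr-deficient cells. The marker lists of 9 other cell types summed to at most 6.30 CPM in any library, and most of that was the dendritic cell marker Zbtb46, with 4.15 to 5.88 CPM. The megakaryocyte marker Itga2b was called lower, with 2.70 to 3.01 CPM in the wild-type and 1.21 to 1.97 CPM in Ahrr-deficient libraries, and the other megakaryocyte markers listed (Pf4, Gp9 and Ppbp) had no row. The part of these markers in the differences of the members was not tested. No marker of mast cells, lymphocytes or fibroblasts had a row.

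Among the phosphatases, Dusp1 and Dusp5 were lower, and Dusp6 and Dusp16 higher, in Ahrr-deficient macrophages, while the Sprouty transcripts overlapped between the groups. The fit across all genes called 4 of the 8 members with enough counts to be tested, 2 in each direction, where called means an edgeR adjusted p under 0.05 over 11408 tested genes. In the same fit 19.6% of all tested genes were called, 9.62% higher and 9.95% lower in Ahrr-deficient cells. The count of 4 members became 2 without wild-type replicate 1, wild-type replicate 3 or Ahrr-deficient replicate 3, and 1 without Ahrr-deficient replicate 2. The libraries of the genotypes did not overlap in CPM for 4 of the 8 members, 2 higher and 2 lower in Ahrr-deficient cells. Of all tested genes 36.6% did not overlap, 23.9% higher and 12.8% lower. CPM are not scaled beyond the library total, unlike the fit, and the part of scaling in this uneven split was not tested. On the authors' normalized scale the Dusp6 groups overlapped. The median log2 fold change was 0.13 over the 8 members and 0.01 over all tested genes. Because the members were chosen with this comparison known, nothing is read from these counts. In bulk RNA, fewer cells expressing a gene and less RNA per cell cannot be told apart.

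**Figure D1:**
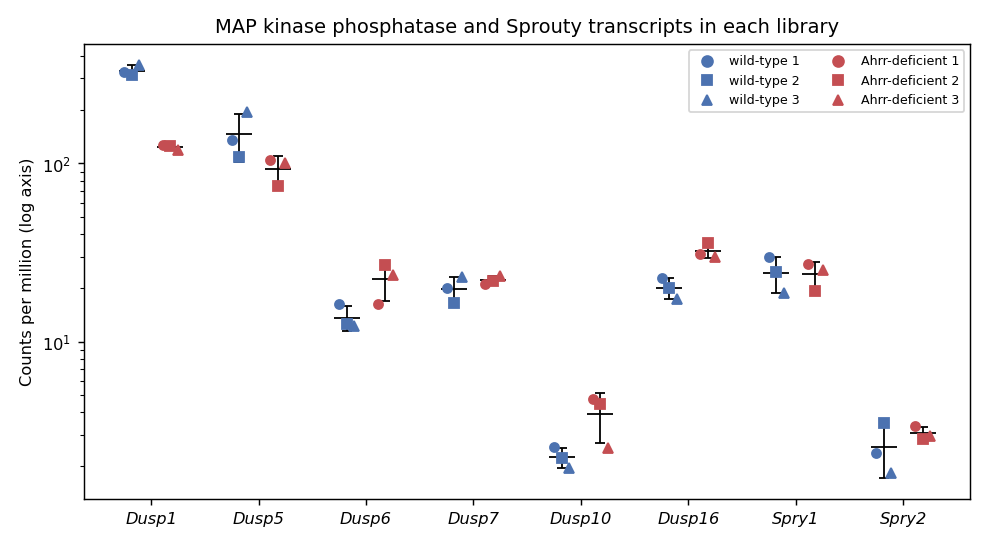
CPM (log axis) of 8 of the 9 member transcripts in each of the 6 libraries; symbols are single libraries, horizontal lines are group means and bars are SDs (n = 3). Dusp2, with 0 counts in some libraries, is left out. The Dusp1 values of the Ahrr-deficient libraries, 118 to 128 CPM, lie far below the wild-type values of 314 to 359 CPM.

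Feedback genes of this kind are known to be switched on through short promoter elements bound by factors downstream of MAP kinases and cyclic AMP. Of the called members, Dusp6 had no match to the motifs searched and is not shown. The upstream sequences of the other 3 called members are shown first. They are the 250 bases before the first transcribed base in RefSeq (GRCm38.p6, the same coordinates as the mm10 build of the deposited data), 5′ to 3′ on the gene's strand. The gene bounds given below are from GENCODE and differ from the RefSeq first base for some members. On the minus strand the GENCODE gene of Dusp1 runs to 26562128, so the Dusp1 sequence shown lies inside it. The Dusp5 sequence runs past the GENCODE start at 53529109. Capitals mark matches to the motifs named after them.
Dusp1, chr17:26508473-26508722, minus strand: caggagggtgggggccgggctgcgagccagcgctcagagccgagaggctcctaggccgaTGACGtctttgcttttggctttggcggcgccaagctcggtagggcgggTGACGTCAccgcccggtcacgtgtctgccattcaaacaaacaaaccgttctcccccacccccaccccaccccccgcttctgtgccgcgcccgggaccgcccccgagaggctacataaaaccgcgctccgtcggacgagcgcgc
Dusp5, chr19:53528895-53529144, plus strand: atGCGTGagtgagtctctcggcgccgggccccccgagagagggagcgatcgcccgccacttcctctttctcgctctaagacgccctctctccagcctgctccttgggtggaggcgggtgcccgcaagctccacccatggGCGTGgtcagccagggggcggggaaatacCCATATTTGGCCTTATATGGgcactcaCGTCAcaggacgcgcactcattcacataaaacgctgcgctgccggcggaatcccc
Dusp16, chr6:134792629-134792878, minus strand: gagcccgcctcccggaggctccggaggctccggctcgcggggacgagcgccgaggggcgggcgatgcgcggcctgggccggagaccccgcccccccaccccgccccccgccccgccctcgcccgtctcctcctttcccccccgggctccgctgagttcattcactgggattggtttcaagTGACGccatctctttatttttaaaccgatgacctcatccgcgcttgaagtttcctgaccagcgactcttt

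All 9 members had a window of 300 bases in that table (250 before and 50 after the first base), and 7 motifs were searched in it on both strands, against 32851 windows of the same length for all genes. Dusp1 had a full cyclic AMP response element, TGACGTCA, 143 bases upstream of the RefSeq first base, at chr17:26508608-26508615. That element was found in 1.79% of all windows and in no other member. Its half-site TGACG, which lies within the full element, was in the windows of Dusp1, Dusp2, Dusp5 and Dusp16 and in 20.8% of all windows. In Dusp5 there was a pair of adjacent CArG boxes, the element bound by serum response factor. They began 82 and 72 bases upstream of the RefSeq first base, at chr19:53529063-53529072 and chr19:53529073-53529082. CArG boxes occurred in 1.63% of all windows and in no other member.

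The core of the dioxin response element, GCGTG, which the aryl hydrocarbon receptor and its repressor bind, was in 5 member windows, those of Dusp2, Dusp5, Dusp7, Spry1 and Spry2, and in 32.4% of all windows. Its longer form TNGCGTG, found in 5.07% of all windows, was in none of the 9. The AP-1 site TGANTCA (7.81% of all windows) and the Egr site GCGTGGGCG, which contains the GCGTG core (0.612%), were also in none. The windows of Dusp6 and Dusp10 held none of the 7 motifs. The Dusp10 window began at 184034131, inside the GENCODE gene, which starts at 184013302. Other start sites of the members were not searched. A match is a run of letters and not evidence of binding, and the absence of one covers only these windows.

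Dusp1 (ENSMUSG00000024190.6, chromosome 17, 26505590 to 26562128, minus strand, protein-coding), the nuclear phosphatase that acts on p38 and JNK and also on ERK, showed the widest separation of the members. It had 325, 314 and 359 CPM in wild-type replicates 1, 2 and 3 and 128, 125 and 118 CPM in the Ahrr-deficient replicates. Every Ahrr-deficient library was therefore below every wild-type library, and the 3 Ahrr-deficient values lay close together. The means were 332 ± 23 and 124 ± 4.7 CPM (SD, n = 3), and the fitted log2 fold change was -1.50 (SE 0.08), a level 2.83-fold lower. The call held under all 14 alternatives, over which the log2 fold change ran from -1.54 to -1.43. An annotated exon of Dusp1 overlaps one of Ergic1 on the opposite strand, so the counts carry some uncertainty where strand was not used. Ergic1 had 99.5 ± 6.8 and 139.5 ± 45.7 CPM (SD, n = 3), a fitted log2 change of 0.43 (p 0.160 after adjustment in edgeR).

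Dusp5 (ENSMUSG00000034765.6, chromosome 19, 53529109 to 53542431, plus strand, protein-coding), a nuclear phosphatase selective for ERK, had 135, 109 and 194 CPM in the wild-type and 105, 74.3 and 100.1 CPM in the Ahrr-deficient replicates 1, 2 and 3. All Ahrr-deficient values were below all wild-type values, but wild-type replicate 2 and Ahrr-deficient replicate 1 nearly met. Group means were 146 ± 44 and 93.2 ± 16.6 CPM (SD, n = 3), with a log2 fold change of -0.73 (SE 0.19), or 1.65-fold lower. The call was lost without wild-type replicate 1 (log2 fold change -0.79), wild-type replicate 3 (-0.52), Ahrr-deficient replicate 2 (-0.57) or Ahrr-deficient replicate 3 (-0.79). An exon of AC137853.2 overlaps it on the opposite strand.

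Dusp2 (ENSMUSG00000027368.6, chromosome 2, 127336159 to 127338376, plus strand, protein-coding), a nuclear phosphatase induced in activated immune cells, was barely detected. It had 9, 3 and 0 counts in wild-type and 0, 9 and 4 counts in the Ahrr-deficient replicates 1, 2 and 3. A count of 0 allows up to 0.420 CPM in wild-type replicate 3 and up to 0.844 CPM in Ahrr-deficient replicate 1 (3 counts of the library total, counting error only). It did not pass the filter on low counts, and no difference was detectable at this depth.

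Of the cytoplasmic ERK phosphatases among the members, Dusp6 was called higher and Dusp7 was not called. Dusp6 (ENSMUSG00000019960.8, chromosome 10, 99263231 to 99267489, plus strand, protein-coding) is a widely used readout of ERK activity. It had 16.2, 12.5 and 12.2 CPM in the wild-type and 16.3, 27.1 and 23.7 CPM in the Ahrr-deficient replicates 1, 2 and 3. Wild-type replicate 1 and Ahrr-deficient replicate 1 thus had nearly the same level, and the rise lay in Ahrr-deficient replicates 2 and 3. On the authors' normalized scale these 2 libraries changed places, with 172 in wild-type replicate 1 and 169.7 in Ahrr-deficient replicate 1, so there the groups overlapped. The means were 13.6 ± 2.2 and 22.3 ± 5.5 CPM (SD, n = 3), and the log2 fold change was 0.67 (SE 0.18), or 1.59-fold higher.

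The Dusp6 call was lost without wild-type replicate 1 (log2 fold change 0.81), wild-type replicate 2 (0.65), wild-type replicate 3 (0.56), Ahrr-deficient replicate 2 (0.50) or Ahrr-deficient replicate 3 (0.65). Without Ahrr-deficient replicate 1, the shallowest library, the call held at 0.78. Dusp7 (ENSMUSG00000053716.9, chromosome 9, 106368632 to 106375724, plus strand, protein-coding) had 20.01, 16.5 and 23.0 CPM in the wild-type and 21.1, 21.8 and 23.4 CPM in the Ahrr-deficient replicates. The groups overlapped, and the log2 fold change was 0.09 (SE 0.11).

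Of the phosphatases among the members that prefer JNK and p38, Dusp16 was higher in all Ahrr-deficient libraries and Dusp10 in 2 of 3. Dusp16 (ENSMUSG00000030203.17, chromosome 6, 134715468 to 134792625, minus strand, protein-coding) had 22.7, 19.999 and 17.4 CPM in the wild-type and 31.2, 35.9 and 30.0 CPM in the Ahrr-deficient replicates 1, 2 and 3. The groups did not overlap on either scale. The means were 20.01 ± 2.64 and 32.4 ± 3.08 CPM (SD, n = 3), with a log2 fold change of 0.62 (SE 0.13), or 1.53-fold higher. The call was lost without Ahrr-deficient replicate 2 (log2 fold change 0.52) and when all libraries were thinned to the smallest total (0.55).

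Dusp10 (ENSMUSG00000039384.8, chromosome 1, 184013302 to 184075636, plus strand, protein-coding) had 2.55, 2.22 and 1.96 CPM in the wild-type and 4.78, 4.49 and 2.53 CPM in the Ahrr-deficient replicates 1, 2 and 3. Ahrr-deficient replicate 3 was at the level of wild-type replicate 1, so the groups overlapped. The log2 fold change of 0.68 (SE 0.27) was near that of Dusp16, but rested on 313 counts in all, and Dusp10 was not called under any of the 13 alternatives in which it was tested.

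The Sprouty genes showed no separation. Spry1 (ENSMUSG00000037211.12, chromosome 3, 37639947 to 37644598, plus strand, protein-coding) had 29.8, 24.4 and 18.6 CPM in the wild-type and 27.3, 19.3 and 25.2 CPM in the Ahrr-deficient replicates, with a log2 fold change of -0.18 (SE 0.20). Without wild-type replicate 1 it was 0.011. Gm42922, which overlaps an exon of Spry1 on the opposite strand, did not exceed 0.405 CPM. Spry2 (ENSMUSG00000022114.5, chromosome 14, 105891947 to 105896819, minus strand, protein-coding) had 2.37, 3.49 and 1.82 CPM in the wild-type and 3.37, 2.86 and 2.93 CPM in the Ahrr-deficient replicates. Its log2 fold change was 0.17 (SE 0.27) and became -0.0045 without wild-type replicate 3, while after thinning it was 0.53. Spry2 rested on 247 counts in all.

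**Figure D2:**
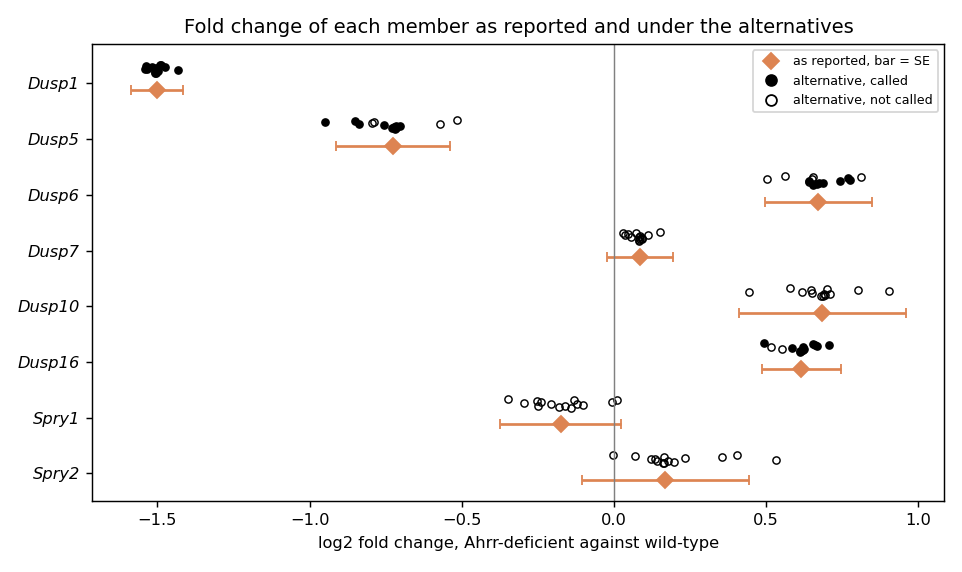
log2 fold change (Ahrr-deficient against wild-type) of 8 member transcripts. Diamonds with bars are the reported value and its SE, and circles are the values under the alternatives, filled where the gene was called. All Dusp1 values lie between -1.54 and -1.43, while the Spry1 and Spry2 values reach to both sides of 0.

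Levels were compared between members as CPM per kilobase of annotated exon. For Dusp1 that length was 3311 bases, over a GENCODE gene that runs to 26562128, upstream of the RefSeq first base. If the Dusp1 transcripts in these cells are shorter, the level per kilobase, rank and share of Dusp1 are understated. In wild-type cells the order was Dusp1 (100.4 ± 7.1), Dusp5 (59.1 ± 17.6), Spry1 (8.36 ± 1.92), Dusp7 (5.91 ± 0.97), Dusp6 (4.35 ± 0.71), Dusp16 (2.57 ± 0.34), Spry2 (1.23 ± 0.41), Dusp10 (0.738 ± 0.097) and Dusp2 (0.148 ± 0.129), each in CPM per kilobase (SD, n = 3). Of the neighbours in this order, Spry1 and Dusp7 overlapped between libraries, as did Dusp7 and Dusp6, and the others did not. Dusp1 ranked 377 and Dusp5 ranked 660 among the 16094 genes with a length, so these nuclear phosphatases were among the more abundant transcripts of the wild-type cells. Dusp10, at rank 11018, and Spry2, at rank 10038, were in the lower part.

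By these annotated lengths, Dusp1 in Ahrr-deficient cells had 37.3 ± 1.4 and Dusp5 37.7 ± 6.7 CPM per kilobase (SD, n = 3). The libraries of these genes overlapped, but a shorter Dusp1 transcript would place Dusp1 higher. Spry1 (8.23 ± 1.43), Dusp6 (7.14 ± 1.76) and Dusp7 (6.58 ± 0.35) followed and overlapped among themselves, though not with Dusp5 above or Dusp16 below them, then Dusp16 (4.15 ± 0.39), Spry2 (1.46 ± 0.13) and Dusp10 (1.29 ± 0.40), of which the last pair overlapped. The summed level of the 9 transcripts was 179, 161 and 208 CPM per kilobase in wild-type and 109, 97.0 and 106 in Ahrr-deficient replicates. Dusp1 made up 54.7%, 58.7% and 52.2% of that sum in wild-type and 35.3%, 38.9% and 33.8% in Ahrr-deficient replicates 1, 2 and 3. The share of Dusp6 was 2.41% ± 0.51 and 6.94% ± 2.08, and that of Dusp16 1.43% ± 0.31 and 4.02% ± 0.63 (SD, n = 3). These shares sum to a whole, so the lower Dusp1 level raises the share of every other member.

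**Figure D3:**
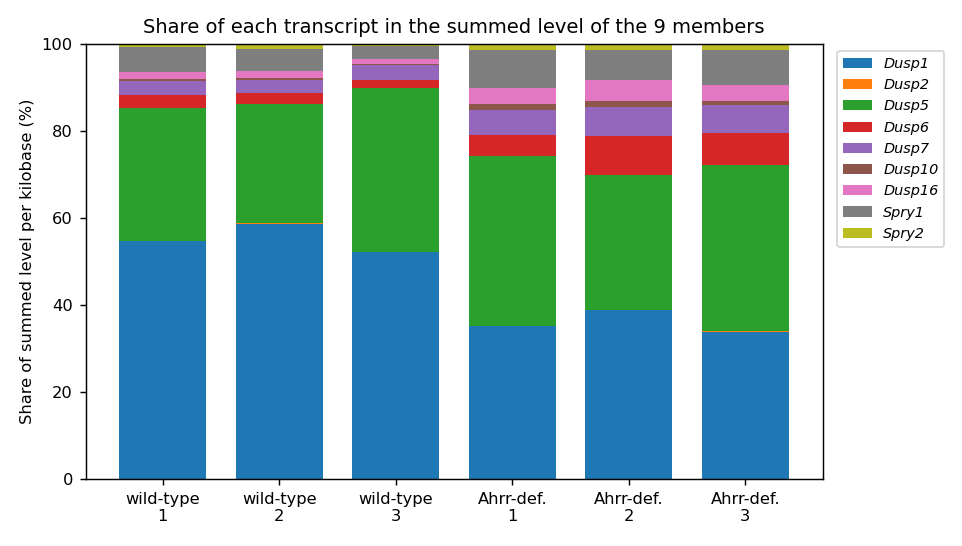
Share (%) of each member in the summed level per kilobase of annotated exon of the 9 transcripts, one bar per library. Dusp1 and Dusp5 fill most of each bar, and the Dusp1 share is 52.2% to 58.7% in the wild-type and 33.8% to 38.9% in the Ahrr-deficient libraries.

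Other genes of the same pathways were taken from 6 lists, tested in the same fit. The lists were chosen with earlier results of these data known, so their called shares are a description only. Of 17 other dual-specificity phosphatases, most of them small enzymes without a MAP kinase-binding domain, 14 had a row and 11 were tested; 3 rose, 1 fell and 7 were not called, 36.4% called against 19.6% of all tested genes. Their median log2 fold change was 0.01, equal to that of all tested genes. Dusp18 rose from 2.87, 2.38 and 2.66 CPM in wild-type to 3.94, 7.73 and 7.89 CPM in the Ahrr-deficient replicates 1, 2 and 3, a fitted log2 change of 1.31 (SE 0.24; p 0.00813 after adjustment in edgeR). Dusp23 rose by 0.96 (SE 0.21; p 0.0170 after adjustment in edgeR) and Dusp11, which encodes an RNA phosphatase, by 0.30 (SE 0.07; p 0.0242 after adjustment in edgeR) on the log2 scale. Dusp13 had a log2 fold change of -1.25 (SE 0.32; p 0.0268 after adjustment in edgeR). The count of 4 fell to 1 without any one of the wild-type replicates 1, 2 and 3 or of the Ahrr-deficient replicates 2 and 3. Dusp18 lost its call without wild-type replicate 1 and after thinning to the smallest total (log2 fold change 0.87), Dusp23 without wild-type or Ahrr-deficient replicate 2 or 3, and Dusp11 and Dusp13 after thinning and without any one library other than Ahrr-deficient replicate 1.

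Of 14 other inhibitors of Ras and receptor signalling, 10 had a row and all of these were tested; 1 rose, 2 fell and 7 were not called, 30.0% called against the same 19.6%, with a median log2 fold change of 0.13. Spry3 and Spry4 had no row. Spred3, a relative of the Sprouty genes, fell from 10.4, 9.84 and 9.39 CPM to 6.75, 4.70 and 4.05 CPM, a fitted log2 change of -1.12 (SE 0.19; p 0.00637 after adjustment in edgeR), and was called under all 14 alternatives. Errfi1, an inhibitor of epidermal growth factor receptors, had a log2 fold change of -0.69 (SE 0.20; p 0.0394 after adjustment in edgeR). Rasa2, a GTPase-activating protein for Ras, rose by 0.70 (SE 0.20; p 0.0376 after adjustment in edgeR) on the log2 scale. The count of 3 became 1 without wild-type replicate 1, wild-type replicate 2 or Ahrr-deficient replicate 2, and 6 without Ahrr-deficient replicate 1. Errfi1 was not called without wild-type or Ahrr-deficient replicate 2, wild-type replicate 1 or Ahrr-deficient replicate 3, and Rasa2 not without any one wild-type library or Ahrr-deficient replicate 2.

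In the ERK cascade, called genes lay in both directions. All 18 listed genes were tested, of which 3 rose, 2 fell and 13 were not called, 27.8% called against 19.6% of all tested genes, with a median log2 fold change of 0.08. The largest rise was that of Rps6ka3, a kinase activated by ERK, from 222 ± 20 to 372 ± 27 CPM (SD, n = 3), a fitted log2 change of 0.68 (SE 0.09; p 0.00336 after adjustment in edgeR). Shoc2, a scaffold of Raf activation, rose by 0.40 (SE 0.08; p 0.0135 after adjustment in edgeR) and Nras by 0.24 (SE 0.07; p 0.0441 after adjustment in edgeR). The adaptor gene Grb2 had a log2 fold change of -0.33 (SE 0.08; p 0.0256 after adjustment in edgeR) and Araf, a Raf kinase gene, of -0.26 (SE 0.07; p 0.0337 after adjustment in edgeR). The count of 5 became 1 without wild-type replicate 1, 2 without wild-type replicate 2 or 3 or Ahrr-deficient replicate 2 or 3, and 9 without Ahrr-deficient replicate 1. Araf and Nras lost their calls after thinning, without a filter on low counts and without any one library other than Ahrr-deficient replicate 1, Shoc2 without wild-type replicate 1 or 3, and Grb2 without wild-type replicate 1 or 2 or Ahrr-deficient replicate 2 or 3. Nras was also not called by DESeq2 or with upper-quartile scaling, so its call held under 4 of the 14 alternatives.

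Of 20 listed genes of the JNK and p38 cascades, 16 were tested; 2 rose, none fell and 14 were not called, 12.5% called against 19.6% of all tested genes, and the median log2 fold change was -0.02. They were Map2k3, an activator of p38, at 0.49 (SE 0.13; p 0.0353 after adjustment in edgeR), and Map2k4, an activator of JNK, at 0.28 (SE 0.08; p 0.0347 after adjustment in edgeR). The count was 0 without any one of the libraries other than Ahrr-deficient replicate 1, and also after thinning. Map2k4 was not called by DESeq2, without a filter or with upper-quartile scaling either. The MAP kinase genes Mapk3, Mapk8, Mapk9 and Mapk14, singled out after their values were seen, were not called. Their log2 fold changes were 0.00 for Mapk3 (SE 0.11), 0.04 for Mapk8 (SE 0.12), 0.20 for Mapk9 (SE 0.08) and -0.12 for Mapk14 (SE 0.11).

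**Figure D4:**
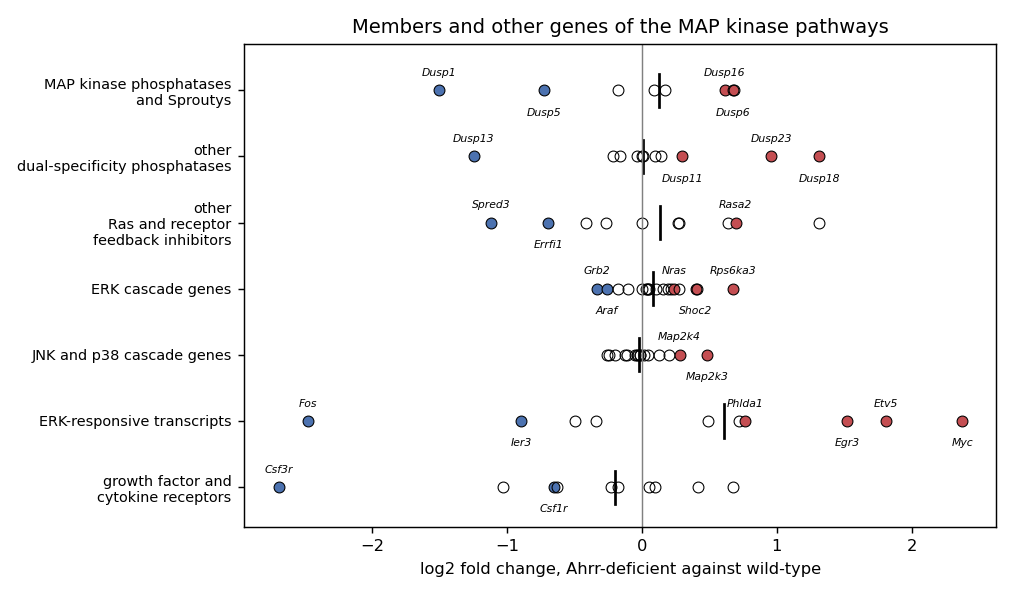
log2 fold change (Ahrr-deficient against wild-type) of the members and of the tested genes of 6 pathway lists. Each circle is a gene, filled red where called higher, blue where called lower and open where not called, and vertical bars are list medians. The kinase lists have medians of 0.08 and -0.02, while the ERK-responsive transcripts run from Fos at -2.48 to Myc at 2.37.

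Transcripts known to respond to ERK, a list chosen with earlier results of these data known, were spread over both directions. Of 14 listed, 11 had a row and 10 were tested; 4 rose, 2 fell and 4 were not called, 60.0% called against 19.6% of all tested genes, with a median log2 fold change of 0.61. Fos, the AP-1 subunit gene, had 326, 326 and 415 CPM in the wild-type cultures and 84.6, 59.4 and 60.0 CPM in the Ahrr-deficient replicates 1, 2 and 3, a fitted log2 change of -2.48 (SE 0.16; p 3.08e-04 after adjustment in edgeR). Its wild-type and Ahrr-deficient libraries were far apart, as were those of Dusp1. Ier3, an early response gene, fell from 122, 87.8 and 68.7 CPM to 52.0, 51.5 and 55.9 CPM, a fitted log2 change of -0.90 (SE 0.19; p 0.0132 after adjustment in edgeR), and was not called without Ahrr-deficient replicate 2.

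Etv5, a transcription factor gene commonly listed with Dusp6 as an ERK target, rose from 3.05, 2.06 and 0.981 CPM to 3.37, 11.1 and 7.89 CPM, a fitted log2 change of 1.81 (SE 0.41; p 0.0172 after adjustment in edgeR). The 6 libraries stood in the same order for Etv5 as for Dusp6, with wild-type replicate 1 just under Ahrr-deficient replicate 1. Phlda1 had the same close pair, with 5.42 and 5.91 CPM in these libraries, and a log2 fold change of 0.77 (SE 0.21; p 0.0361 after adjustment in edgeR). Ahrr-deficient replicates 1 and 2 were also the shallowest and the deepest libraries, and the part of depth in this order was not tested. Egr3 rose by 1.52 (SE 0.22; p 0.00384 after adjustment in edgeR) and Myc, with 20.999 ± 5.11 and 116 ± 46 CPM (SD, n = 3), by 2.37 (SE 0.27; p 0.00184 after adjustment in edgeR). The call of Etv5 was lost without wild-type replicate 2 or Ahrr-deficient replicate 2 or 3, and that of Phlda1 after thinning and without any one library other than Ahrr-deficient replicate 1. Without Ahrr-deficient replicate 2 the list held 3 called genes in place of 6. Fos, Myc and Egr3 were called under all 14 alternatives.

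Of 15 receptors that signal to these pathways, 10 had a row and were tested; none rose, 2 fell and 8 were not called, close to the 19.6% called among all tested genes, and the median log2 fold change was -0.20. Csf3r, the receptor gene for G-CSF, fell from 7.79, 6.98 and 8.13 CPM to 2.81, 1.03 and 1.11 CPM, a fitted log2 change of -2.69 (SE 0.29; p 0.00151 after adjustment in edgeR). Csf1r, the receptor gene for M-CSF, fell from 957 ± 106 to 639 ± 151 CPM (SD, n = 3), a fitted log2 change of -0.65 (SE 0.17; p 0.0304 after adjustment in edgeR). The count of 2 became 1 without any one of the wild-type libraries or without Ahrr-deficient replicate 3. Csf1r lost its call without any one library other than Ahrr-deficient replicate 1. With replicate number added to the fit (the replicate block), 1 receptor was called higher and 2 lower. Without Ahrr-deficient replicate 2 the calls were 1 higher and 1 lower. The receptor genes for the GM-CSF in the medium, singled out after their values were seen, were not called. Their log2 fold changes were 0.10 for Csf2ra (SE 0.15) and -0.18 for Csf2rb (SE 0.13). Csf2rb2, singled out in the same way and not counted as a GM-CSF receptor gene, was not called either, at -0.23 (SE 0.13). Csf2rb and Csf2rb2 are near-identical copies, so reads may be split between them.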

How the data were processed

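The authors deposited raw read counts for 53465 features without identifiers, and a normalized signal, which is counts divided by 1 factor per library, for 16111 genes with identifiers. A TruSeq kit was used on 100 ng of RNA per library, and single reads of 75 bases were taken, per the labels' protocols. The submitters' processing notes name fastp 0.20.0, STAR 2.7.10b, SAMtools 1.16.1, DESeq2 1.40.2 and mm10; the counting program, annotation and strand setting are not given in the sources used here. All deposited signal values (100%, within a relative tolerance of 1e-06) were whole multiples of 1 read. The recovered counts matched the raw rows as vectors of 6 counts for all 16111 genes, and were used with the remaining features (at most 0.0511% of a library) in the totals.

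For testing, edgeR 4.0.16 (R 4.3.3) fitted quasi-likelihood models to the counts (TMM scaling, factors 0.904 to 1.04, filterByExpr, genotype as the only term, Benjamini-Hochberg over 11408 genes, two-sided, threshold 0.05, common coefficient of variation 13.0%). SEs came from the fold change and F statistic; the procedure was tested on simulated data. CPM are counts per 1000000 of the library total, unscaled. Positions and exon lengths are from GENCODE mouse release 21 (GRCm38), which held 16094 of the 16111 identifiers. Figures were drawn with matplotlib 3.10.9.

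The members, lists and tests were chosen with earlier results of these data known. All members and Ahrr are named, and from each list up to 4 called genes per direction by fold change. Alternatives were RLE and upper-quartile scaling, no filter, DESeq2 1.42.0, limma-voom (limma 3.58.1), a replicate block, thinning to the smallest total, and each library left out. Leaving out wild-type replicate 2 and Ahrr-deficient replicate 1 together was chosen after seeing the data. The chi-square per degree of freedom between replicates was 5.79 or more, so no pair differed by counting error alone. Each library counted as 1 replicate, though this value cannot show that the cultures were independent. The p-values set the genotype difference against the spread between these cultures.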

Additional observations from a re-analysis of the deposited data

How the results depend on the processing

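Each result was computed again under 14 alternatives, giving 545 values, of which 389 had the reported direction and call or, for counts, stayed within 1.5 times of the reported one. The cause of the other changes was not tested, beyond the fewer samples or reads of a fit. The reported 2232 called genes became 1390 with the replicate block and 1166 after thinning to the smallest total. Of the members, 3 of 8 were called with the block and 3 of 7 after thinning. With the block 2 other phosphatases, 2 ERK cascade genes and 0 JNK and p38 genes were called. After thinning these counts were 1, 3 and 0. DESeq2 called 5 inhibitors and 1 JNK or p38 gene, limma-voom 6 inhibitors, and upper-quartile scaling 1 JNK or p38 gene. Without a filter 6 inhibitors, 1 JNK or p38 gene, 10 ERK-responsive transcripts and 5 receptors were called. Without both wild-type replicate 2 and Ahrr-deficient replicate 1, 6 inhibitors, 8 ERK cascade genes and 4 of the members were called.

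With each library left out in turn, called genes ran from 694 to 3857, members from 1 to 4, other phosphatases from 1 to 5, inhibitors from 1 to 6, ERK cascade genes from 1 to 9, JNK and p38 genes from 0 to 3, ERK-responsive transcripts from 3 to 7 and receptors from 1 to 2. The log2 fold change of Ahrr ran from -1.69 to -1.0001 in these fits and was -1.35 after thinning, where its edgeR adjusted p was 0.102. Spry1 ran from -0.35 to 0.011, changing sign without wild-type replicate 1, and Spry2 from -0.0045, without wild-type replicate 3, to 0.40.

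In the labels, same-numbered libraries of the genotypes share only a number. Their deviations from the group means correlated across genes at -0.17, 0.07 and 0.13 for replicates 1, 2 and 3. A library correlated best with its own number only for replicate 3. With 3 libraries per group these values cannot show whether the cultures were paired. Of the members the block ended the call of Dusp6 (log2 fold change 0.64) only, and of the other named genes those of Dusp11, Dusp13, Araf, Grb2, Nras, Map2k3, Map2k4 and Phlda1.

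Depth limits the members with few counts, which over all libraries were 25 for Dusp2, 247 for Spry2 and 313 for Dusp10; 3 counts in the shallowest library are 0.844 CPM. Spry2 moved from 0.17 to 0.53 after thinning. Dusp10 was removed by the filter after thinning and gave no value there.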

Other observations

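Some related genes, chosen after their values were seen, varied more among the Ahrr-deficient libraries than between the groups. Spred2, an inhibitor of Ras signalling related to the Sprouty genes, had 5.24, 4.29 and 4.76 CPM in the wild-type and 3.66, 19.1 and 10.0 CPM in the Ahrr-deficient replicates 1, 2 and 3, a fitted log2 change of 1.31 (SE 0.40; p 0.0506 after adjustment in edgeR). Spred1 had 15.6, 18.6 and 12.7 CPM in the wild-type and 15.7, 32.4 and 24.0 CPM in the Ahrr-deficient replicates (p 0.0870 after adjustment in edgeR). Ccnd1, a cyclin gene induced through ERK, had 4.79, 2.70 and 4.34 CPM in the wild-type and 1.12, 10.7 and 5.56 CPM in the Ahrr-deficient replicates (p 0.287 after adjustment in edgeR). In each of these genes Ahrr-deficient replicate 2 was the highest and replicate 1 the lowest library of its group, as for Dusp6. In Dusp18, Dusp23 and Phlda1, Ahrr-deficient replicate 3 was the highest. Ahrr-deficient replicates 2 and 1 were also the deepest and the shallowest libraries, and the part of depth was not tested. How common this order is among all tested genes was not counted. Dusp8, a phosphatase gene best known from brain and heart, had 59 of its 77 counts in Ahrr-deficient replicate 2, the deepest library, and was not tested.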
